A study of Mus musculus with 2 samples.

Results

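Growth factor receptor and ligand genes, 9 in all, were followed in livers of MMP-14 KO and wild-type mice; MMP-14 is a metalloproteinase tethered to the cell membrane. They are the fibroblast growth factor (FGF) receptor genes Fgfr1, Fgfr2, Fgfr3 and Fgfr4, the FGF ligand gene Fgf1, the hepatocyte growth factor (HGF) gene Hgf and its receptor gene Met, and the platelet-derived growth factor (PDGF) receptor genes Pdgfra and Pdgfrb. The genes were listed by name, with earlier results of these data known, and all 9 were on the array with 1 probe each, among 16390 named genes. Expression was read on 2 arrays hybridised in 2 colours, with 1 array per comparison, wild type in Cy5 and MMP-14 KO in Cy3 on both. On the first array, labelled E14 and given as E14.5 livers in the design text, each channel carried RNA of 100000 liver cells from 3 embryos' livers per genotype, sorted as Dlk-positive and as negative for CD45, CD71 and Ter119. On the second, each channel carried whole-liver RNA mixed from 2 livers per genotype, labelled P1 but given as E18.5 in the design text, and it is called the P1 array here. The strain, the knockout allele and the cells in which Mmp14 is lost are not stated in the labels.

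FGF, HGF and PDGF receptors are receptor tyrosine kinases, which pair when a ligand binds, phosphorylate each other and recruit adaptor proteins that switch on the ERK and PI3 kinase cascades. In liver, HGF is made by stellate and endothelial cells and acts on hepatocytes and hepatoblasts through MET, FGFR4 is the hepatocyte receptor that takes up the bile acid signal of FGF15, and PDGF receptors mark mesenchymal cells, stellate cells among them. Fetal liver also holds blood-forming cells, endothelium and mesothelium.

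With 1 array per comparison and no dye swap there was no test and no error between animals, and a gene-specific dye effect and genotype cannot be told apart. In bulk RNA, fewer cells of a type and less RNA per cell cannot be told apart either. Each ratio is the log2 of the knockout level divided by the wild-type level, and a gene was detectable in a channel when its spot signal exceeded the mean of blank spots by 2 SD. As a yardstick, different probes of the same gene differed by a pooled SD of 0.12 on the E14 array and 0.22 on the P1 array (139 genes each). Dlk1 and Afp, which mark hepatoblasts, gave wild-type signals of 4971 and 35570 on the E14 array. Of the genes of the excluded surface proteins, Ptprc (CD45) read 43.8 for wild type, below threshold, and 88.9 for knockout, above it, and Tfrc (CD71) read 196 and 518, above threshold in both. All 7 erythroid markers on the array were detectable in both channels of the sorted cells. All 16 stellate cell and fibroblast markers were as well. So were 12705 of the 16390 named genes and 7 of 15 lung epithelial markers, so these counts do not show which cells were present. On the P1 array the wild-type RNA gave a signal above threshold for 15 of 15 lung epithelial markers and the knockout RNA for 9. Mmp14, the targeted gene, had ratios of -1.13 and -1.30 on the E14 and P1 arrays. Whether its probe lies in the deleted part is not stated in the labels.

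The windows of 250 bases before the transcription start of 4 of the genes are shown because these genes differ in their pattern on the arrays: Pdgfra and Fgfr2 had ratios above 0 in E14 cells and below 0 in P1 liver, Fgfr4 lay near 0 in E14 cells and below 0 in P1 liver, and Met had the opposite signs to Pdgfra. They are from RefSeq (GRCm38.p6), 5′ to 3′ on the strand of the gene, with capitals marking the GC box GGGCGG on either strand. The windows lie at chr5:75152001-75152250 (plus strand) for Pdgfra, chr7:130266809-130267058 (minus strand) for Fgfr2, chr13:55152568-55152817 (plus strand) for Fgfr4 and chr6:17463707-17463956 (plus strand) for Met.
Pdgfra: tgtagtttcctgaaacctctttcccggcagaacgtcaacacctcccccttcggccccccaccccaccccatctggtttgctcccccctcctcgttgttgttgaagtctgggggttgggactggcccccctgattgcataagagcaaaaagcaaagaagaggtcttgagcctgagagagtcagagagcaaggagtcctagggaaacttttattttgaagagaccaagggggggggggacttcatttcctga
Fgfr2: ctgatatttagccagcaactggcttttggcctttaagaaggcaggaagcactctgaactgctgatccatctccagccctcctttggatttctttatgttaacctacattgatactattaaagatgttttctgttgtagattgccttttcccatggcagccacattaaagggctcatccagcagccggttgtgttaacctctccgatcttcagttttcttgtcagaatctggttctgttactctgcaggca
Fgfr4: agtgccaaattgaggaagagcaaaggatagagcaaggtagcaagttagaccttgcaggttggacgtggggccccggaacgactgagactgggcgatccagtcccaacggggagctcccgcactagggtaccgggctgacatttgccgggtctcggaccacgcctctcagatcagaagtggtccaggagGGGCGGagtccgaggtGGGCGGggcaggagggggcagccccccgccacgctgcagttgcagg
Met: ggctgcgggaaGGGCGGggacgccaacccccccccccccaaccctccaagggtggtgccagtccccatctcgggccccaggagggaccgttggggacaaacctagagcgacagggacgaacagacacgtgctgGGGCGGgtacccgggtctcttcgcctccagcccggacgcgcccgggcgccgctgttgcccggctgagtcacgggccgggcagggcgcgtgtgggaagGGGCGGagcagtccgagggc

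The GC box was present 3 times in the Met window and 2 times in the Fgfr4 window, and 0 times in those of Fgfr2 and Pdgfra, against 32.7% of 32851 windows of this length that held at least 1. CCAAT (33.8% of all windows), TATAAA (12.4%) and the TEAD motif GGAATG (12.6%), each searched on both strands, were in none of the 4 windows. The Met window was 74.0% G and C with 24 CpG pairs and that of Fgfr4 64.0% with 15, while those of Pdgfra (54.4%, 4 pairs) and Fgfr2 (44.0%, 2 pairs) lay nearer to the median of all windows (52.4%, 6 pairs). These are descriptions of the letters in these windows. The arrays do not measure binding.

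In the sorted E14 cells, of the 9 genes, 7 had a ratio above 0, as did 53.1% of all 12705 genes detectable in both channels, and the median was 0.17 against 0.01 for all genes. None of the 9 was at least 1.5-fold higher (0.307% of all genes) or at least 1.5-fold lower (0.220%). In the authors' deposited table, whose ratios carry no added constant, none passed 1.5-fold either, against 5.38% of genes higher and 1.22% lower. Pdgfra (0.43) and Pdgfrb (0.34) lay above the 97.5th percentile of all genes (0.31) after normexp and loess, with 99.1% and 98.2% of genes lower. Those shares were 91.9% and 90.3% in the authors' deposited table. They were 95.2% and 91.7% with the local background used, and 86.5% and 84.7% with it subtracted. The order among the 9 changed with the processing: in the authors' deposited table Fgfr3 (0.57) was highest, and under median centring Fgfr3 (-0.24) was lower than Met (-0.00).

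In P1 liver, 7 of the 8 detectable genes had a ratio below 0, as did 50.4% of all 12715 genes detectable in both channels, with a median of -0.42 against -0.00 for all genes. Met was the exception, with a ratio above 0. Fgf1 alone was at least 1.5-fold lower, against 4.12% of all genes, and none was at least 1.5-fold higher, against 2.85%. By the authors' deposited table, 6 were at least 1.5-fold lower (12.2% of genes) and 1, Met, at least 1.5-fold higher (11.9%). The signs of these 8 P1 ratios were the same under all 12 alternative ways of processing. Those that alter only the detection filter or the probe summary cannot change a ratio here, because each gene has 1 probe. The ratio of Hgf stayed near 0, from -0.20 to -0.0009.

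**Figure D1:**
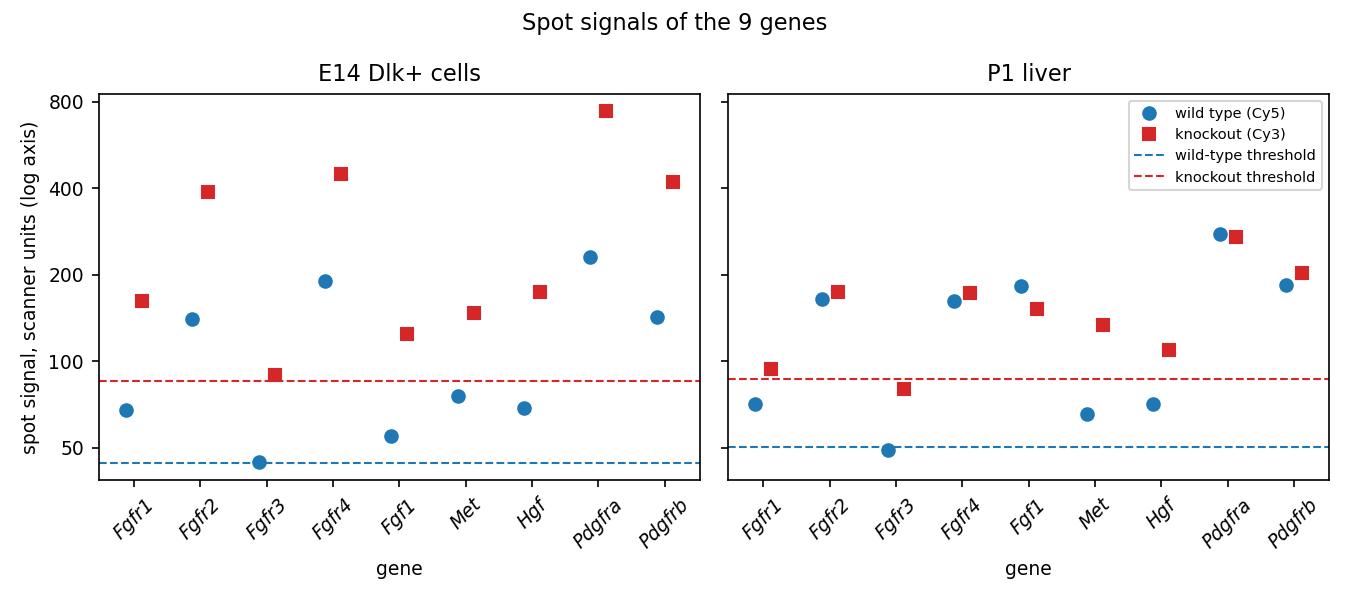
Spot signals of the 9 genes in scanner units on a log axis, for wild type (Cy5, circles) and knockout (Cy3, squares), with the detection threshold of each channel as a dashed line. Fgfr3 lies just above the thresholds on the E14 array and below them on the P1 array, where dashed lines stand at 44.3 and 85.1 (E14) or 50.5 and 87.0 (P1), and signals are comparable within a gene and channel, not between genes.

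Fgfr2 had a ratio above 0 in E14 cells and below 0 in P1 liver. It encodes a receptor that in its epithelial form answers ligands made by neighbouring mesenchyme. Its probe (M300007456) read 141 for wild type and 390 for knockout on the E14 array, and 165 and 175 on the P1 array. Knockout readings on the E14 array were brighter than wild-type readings for most probes, by a median factor of 2.09, and by 1.65 on the P1 array, so raw signals have to be read against these factors. After normalisation the ratio of Fgfr2 was 0.26 in E14 cells and -0.46 in P1 liver, and 0.30 and -0.78 in the authors' deposited table. On the E14 array 96.0% of genes had a lower ratio, and on the P1 array 6.37%. The E14 share was 85.8% in the authors' deposited table, 75.5% with the local background used and 61.2% with it subtracted. With the local background of each spot used, the E14 ratio was 0.11 and the P1 ratio -0.45.

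Fgfr4, the bile acid signalling receptor of hepatocytes, had a similar level in both genotypes at E14. Its signals were 190 and 449 for wild type and knockout on the E14 array, and 162 and 173 on the P1 array (probe M300000661). The E14 ratio was 0.02, and -0.03 in the authors' deposited table. Its sign turned in 4 of 12 alternatives, of which those of filter and probe summary could not turn it. In P1 liver the ratio was -0.44, and -0.76 in the authors' deposited table. At that spot the local background was 144 (wild type) and 154 (knockout), close to the spot itself, and with the local background used the P1 ratio was -0.06. The lower P1 value of Fgfr4 thus depends on how the surroundings of the spot are treated.

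Fgfr1, a receptor expressed mainly in mesenchymal cells, was dim. Its signals were 67.5 and 162 on the E14 array and 71.1 and 94.0 on the P1 array (probe M300007786). The P1 knockout signal stood 5.15 blank SD above the blank mean, where the wild-type signal stood 18.9 SD above it. Ratios were 0.17 in E14 cells and -0.31 in P1 liver (0.07 and -0.19 with the local background used), and the authors' deposited table gave 0.34 and -1.44. A constant of 50 was added to each channel in the values used here and none in that table. Fgfr3 was at the edge of detection in E14 cells, with signals of 44.5 and 89.3 against thresholds of 44.3 and 85.1. In P1 liver it was not well above background in either channel (49.2 and 79.9), so it has no ratio there, and its E14 ratio of -0.00, which is 0.57 in the authors' deposited table, turned sign among the alternatives.

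Fgf1, an FGF that can bind every FGF receptor, had the lowest P1 ratio of the 8 detectable genes after normexp and loess, while Fgfr1 (-1.44) was lower in the authors' deposited table and Pdgfra (-0.74) with the local background used. Its signals were 54.9 and 125 on the E14 array and 183 and 152 on the P1 array (probe M400001913), so P1 wild type exceeded P1 knockout before any scaling. The ratio was 0.13 in E14 cells and -0.84 in P1 liver, a 1.79-fold lower level, with 2.08% of genes lower. The authors' deposited table gave 0.46 and -1.40. The local background at this P1 spot was 165 (wild type) and 130 (knockout), against medians of 41.2 and 74.2 at blank spots. With the local background used the P1 ratio was -0.02, and with it subtracted -0.08, so the 1.5-fold difference was lost under both. Over all probes the local background followed the spot signal (Spearman 0.90 for the P1 wild-type and 0.95 for the P1 knockout channel, across probes, which are not replicates).

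Met and Hgf, receptor and ligand of one pathway, did not go together. Met read 75.8 and 147 on the E14 array and 65.6 and 133 on the P1 array (probe M300001035). Its ratio was -0.14 in E14 cells, with 6.56% of genes lower, and 0.43 in P1 liver, with 93.5% of genes lower. In the authors' deposited table these were -0.37 and 1.09. The E14 ratio was below 0 and the P1 ratio above 0 in all 12 alternatives, with E14 values from -0.74 to -0.00 and P1 values from 0.20 to 1.21. The alternatives of filter and probe summary could not change these ratios. Met was the only one of the 9 with a lower level in E14 knockout cells and a higher level in P1 knockout liver.

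Hgf read 68.9 and 174 on the E14 array and 71.1 and 110 on the P1 array (probe M200003387). The E14 ratio was 0.23, with 94.6% of genes lower, and 0.46 in the authors' deposited table. The P1 ratio was -0.03, within the spread between probes of a gene. It was -0.20 in the authors' deposited table, for which that spread was not measured. The difference between the arrays was not tested.

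Pdgfra, the receptor of PDGF-A and PDGF-C, had ratios of opposite sign on the arrays. Signals were 232 and 744 on the E14 array and 278 and 271 on the P1 array (probe M200001112). The ratio was 0.43 in E14 cells, a 1.35-fold higher level, with 99.1% of genes lower, and -0.58 in P1 liver, a 1.49-fold lower level, with 4.23% of genes lower. The authors' deposited table gave 0.46 (91.9% of genes lower) and -0.73 (8.50% lower). Unlike Fgf1 and Fgfr4, the P1 ratio of Pdgfra was lower still with the local background used (-0.74), where the wild-type spot read 278 against a local background of 92.8.

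Pdgfrb, the PDGF-B receptor of pericytes and stellate cells, had signals of 143 and 420 on the E14 array and 185 and 203 on the P1 array (probe M200001612). Its ratio was 0.34 in E14 cells, with 98.2% of genes lower, and -0.39 in P1 liver. The authors' deposited table gave 0.40 (90.3% of genes lower) and -0.62 (11.3% lower). The E14 ratio hardly moved with the local background used (0.35), while the P1 ratio shrank to -0.06. The higher E14 levels of both PDGF receptor genes were thus seen with and without the local background, and the lower P1 level was seen both ways for Pdgfra but not for Pdgfrb.

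**Figure D2:**
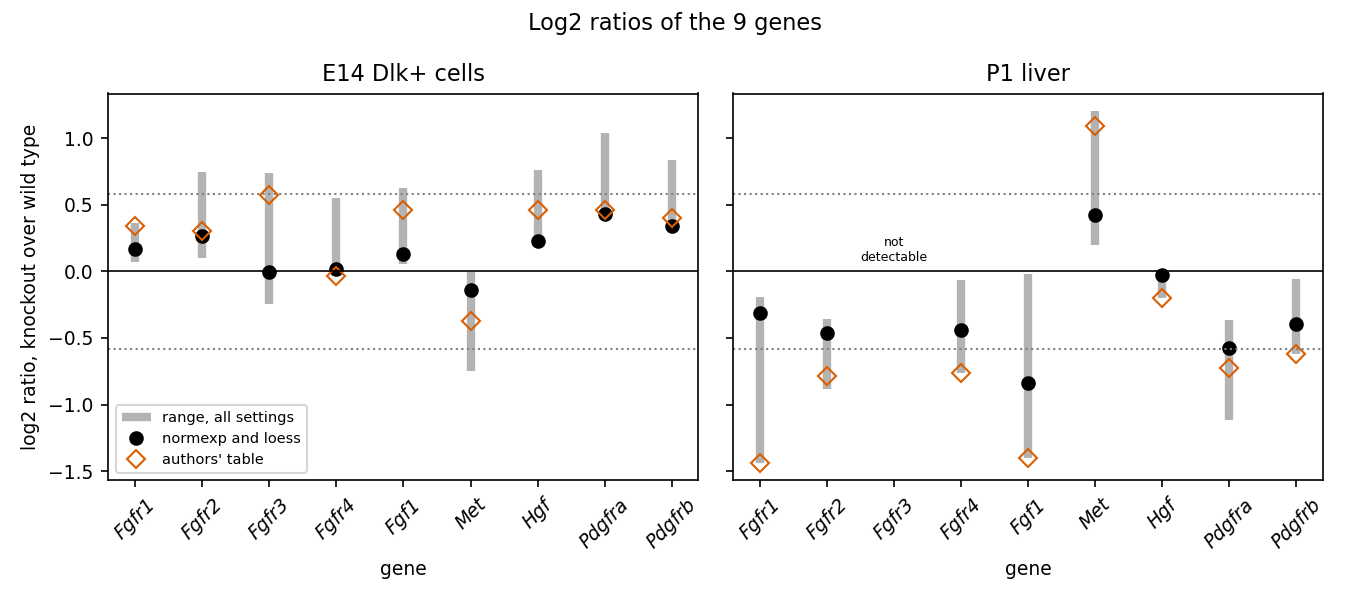
Log2 ratios of knockout over wild type for the 9 genes on the E14 and P1 arrays. Filled circles are the values after normexp and loess, open diamonds the authors' deposited values, grey bars the range over all settings, and dotted lines 1.5-fold; P1 ratios of 7 genes lie below 0 and that of Met above 0 throughout.

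Of the 8 genes detectable on both arrays, 7 had a ratio above 0 in E14 cells and below 0 in P1 liver, as did 23.7% of 12005 genes. The E14 ratio of Fgfr4 (0.02) and the P1 ratio of Hgf (-0.03) were too near 0 for their signs to count. The differences between the arrays, P1 minus E14, were -1.01 for Pdgfra, -0.97 for Fgf1, -0.73 for Pdgfrb and -0.72 for Fgfr2, and -1.19, -1.86, -1.02 and -1.09 in the authors' deposited table. With the local background used in normexp, only the difference of Pdgfra (0.52 in E14 cells and -0.74 in P1 liver) still reached 1.5-fold. With it subtracted instead, the differences of all these genes did. The E14 and P1 ratios were then 0.61 and -1.11 for Pdgfra and 0.62 and -0.08 for Fgf1. They were 0.55 and -0.18 for Pdgfrb and 0.10 and -0.88 for Fgfr2. The differences were not tested, and sorted cells and whole liver differ in cell content as well as in stage.

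**Figure D3:**
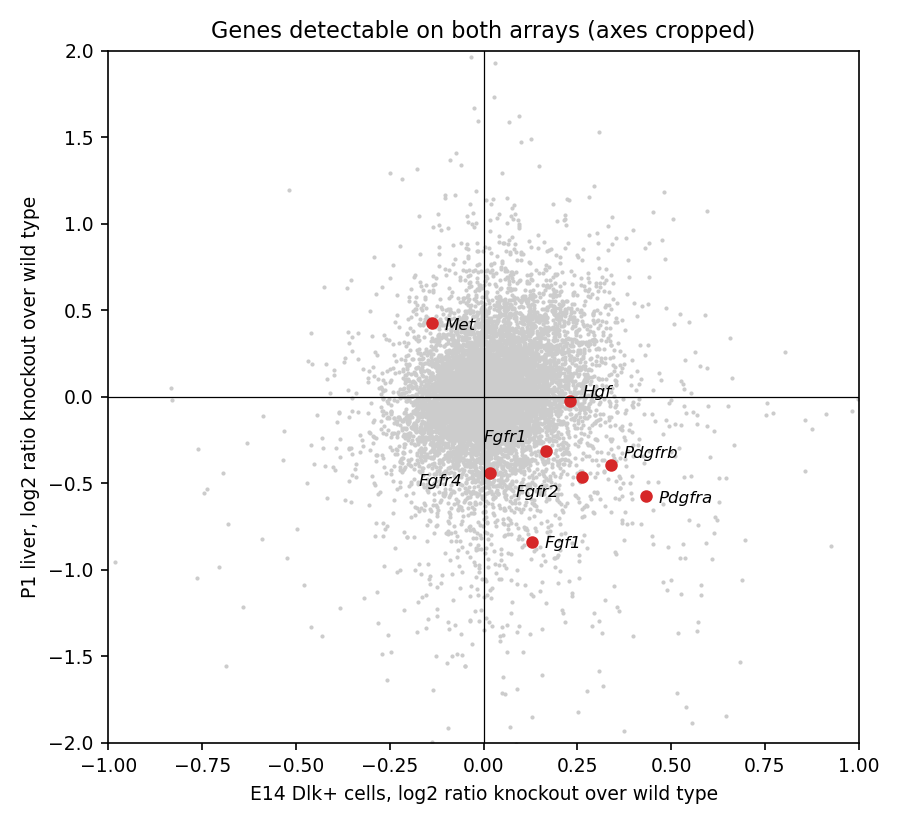
Log2 ratios on the E14 array (x axis) against the P1 array (y axis) for 12005 genes detectable on both, with 8 of the 9 genes in red; 43 genes lie outside the axes, which end at 1 and 2. Of the red points, 7 lie to the right of and below the lines at 0, and Met lies on the opposite side of both.

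Channel levels, log2 values after loess and Aquantile normalisation, place each gene in the 4 RNA samples. The wild-type channels of both arrays carried the same dye, so a gene's difference between them is free of a constant dye effect, though not of the difference between sorted cells and whole liver. Wild-type levels of Pdgfra (8.43 in E14 cells and 8.36 in P1 liver) and Pdgfrb (7.76 and 7.74) differed by -0.07 and -0.01. When each channel was scaled to its median, the differences were 0.03 and 0.11. The spread between probes given above is one of ratios, and no spread of levels was measured. Fgfr2 differed by -0.16, and by -0.02 with each channel scaled to its median. Knockout levels of the same genes were apart by -1.08, -0.75 and -0.89. The order of levels was thus E14 knockout, E14 wild type, P1 wild type, P1 knockout for Pdgfra, Pdgfrb, Fgfr2, Fgfr1 and Hgf. The order of the middle pair turned for Pdgfra and Pdgfrb when each channel was scaled to its median. The 2 P1 levels of Hgf (6.35 and 6.32) were close, so their order carries little weight.

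Fgfr4 was lower in P1 liver than in sorted E14 cells in both genotypes. Its levels were 8.15 in wild-type and 8.17 in knockout E14 cells, against 7.53 and 7.09 in P1 liver. Fgf1 went the other way, from 6.30 and 6.43 in E14 cells to 7.70 in wild-type and 6.86 in knockout P1 liver, and 95.8% of genes had a lower wild-type difference. The levels do not use the local background. At the P1 wild-type spots it was 165 for Fgf1, against a signal of 183, and 144 for Fgfr4, against 162. How far these 2 P1 levels come from the surroundings of the spots was not tested. Met had its highest level in E14 wild type (6.77) and its lowest in P1 wild type (6.25), while the knockout levels of 6.63 and 6.67 lay between them. Fgfr3, below threshold in P1 liver, was left out of this comparison.

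**Figure D4:**
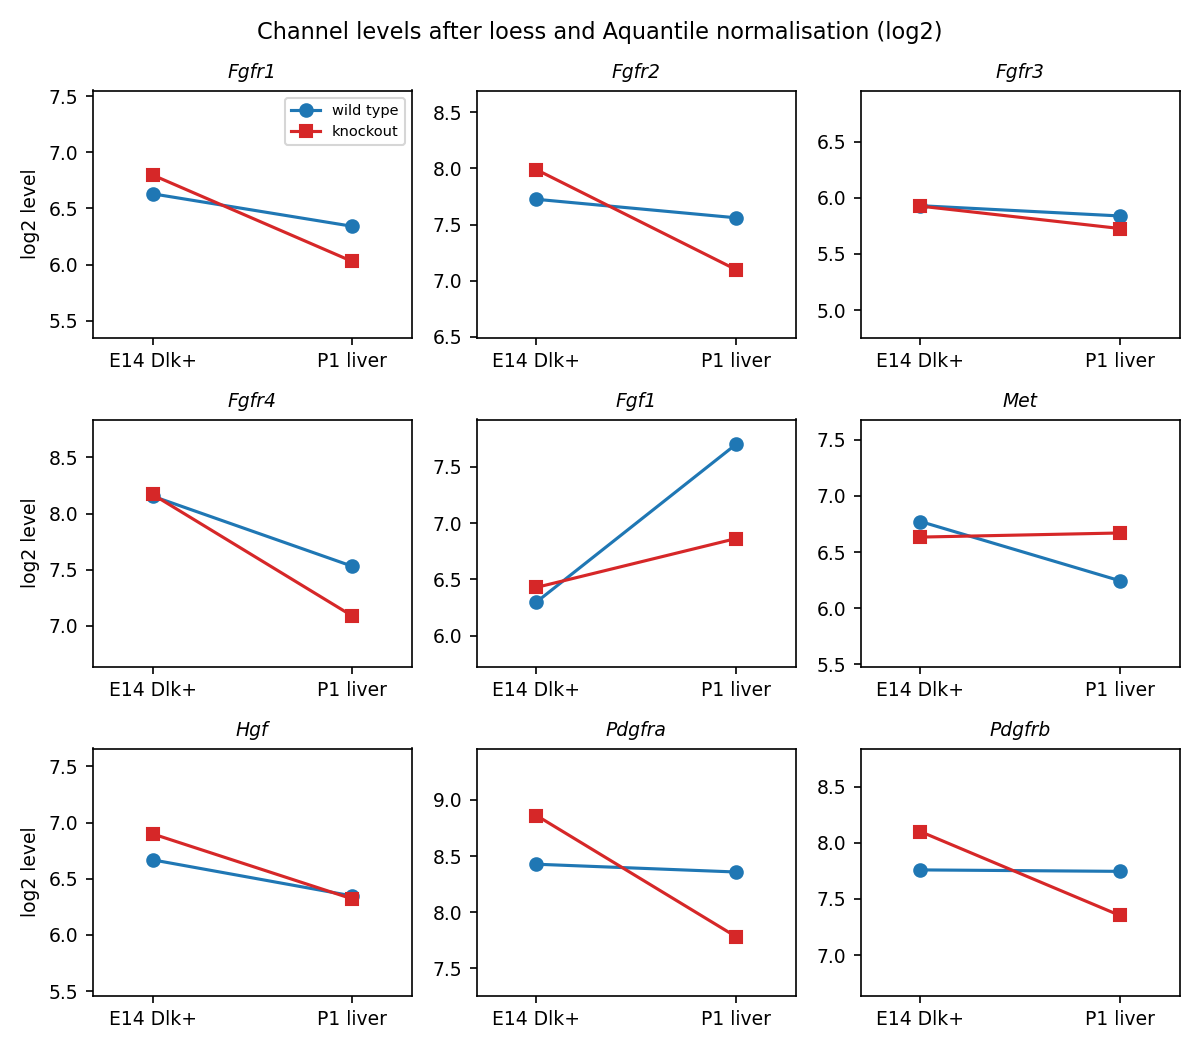
Channel levels (log2, after loess and Aquantile normalisation) of each of the 9 genes in E14 Dlk+ cells and P1 liver, wild type as circles and knockout as squares, 1 value each and all panels spanning the same range. The lines cross for each gene but Fgfr3, and wild-type Fgf1 is higher in P1 liver (7.70) than in E14 cells (6.30). The local background is not used in these levels.

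The partners of these receptors were described from fixed lists, with genes named where they were at least 1.5-fold changed. Of all genes, 0.307% were at least 1.5-fold higher and 0.220% lower in E14 cells, and 2.85% and 4.12% in P1 liver. In the authors' deposited table these shares were 5.38% and 1.22%, and 11.9% and 12.2%. The list counts are to be read beside them. Most FGF ligands were not measurable. Of 22 ligand genes, 10 were detectable in both channels on each array and 9 on both arrays, and 6 (Fgf2, Fgf4, Fgf6, Fgf10, Fgf12 and Fgf23) were in no channel. On the P1 array 3 of the 10 were at least 1.5-fold lower and 0 higher: Fgf5 (-1.34), Fgf1 (-0.84) and Fgf18 (-0.62), with a list median of -0.12, and 5 were lower and 1 higher in the authors' deposited table. Fgf5 read 174 in P1 wild type and 108 in P1 knockout. With the local background used, the P1 ratio of Fgf5 was -1.18, while Fgf18 (-0.30) and Fgf1 (-0.02) were no longer past 1.5-fold. No ligand passed 1.5-fold in E14 cells (list median -0.05). The co-receptor and decoy list had 0 genes past 1.5-fold on either array, though by the authors' deposited table Flrt1 was higher in E14 cells (0.69) and, in P1 liver, 1 was higher (Flrt2, 0.70) and 2 lower (Flrt3, -1.73, and Fgfbp3, -0.84). The P1 knockout signals of the last 3 lay between 87.9 and 96.3, against a threshold of 87.0. Klb, the beta-Klotho partner of FGFR4, stood at -0.17 and 0.10 on the E14 and P1 arrays.

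FGF15 represses bile acid synthesis through FGFR4. Of 11 genes of that list detectable in P1 liver, 2 were at least 1.5-fold higher and 0 lower: Cyp27a1 (0.89), the sterol 27-hydroxylase, and Cyp7a1 (0.71), the rate-limiting enzyme. Cyp7a1 read 136 in wild type and 311 in knockout. With the local background used, Cyp27a1 stood at 0.72 and Cyp7a1 at 0.42, which is below 1.5-fold. Of all genes, 2.85% were at least 1.5-fold higher in P1 liver. The authors' deposited table had 3 of the list higher (11.9% of genes) and 1 lower (12.2%). The list median was 0.10 in P1 liver and 0.02 in E14 cells, where 0 of 11 passed 1.5-fold, and Fgf15 itself, a gut hormone, was not detectable in either P1 channel. A link between these genes and Fgfr4 was not tested.

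Around MET, 14 of 17 genes of HGF activation and MET partners detectable in both channels had P1 ratios below 0, as did 50.4% of all genes. The list median was -0.24, and 1 gene was at least 1.5-fold lower (4.12% of all genes). It was the HGF activator inhibitor gene Spint1 (-0.61, with signals of 97.3 and 101, and -0.49 with the local background used). By the authors' deposited table, 4 were at least 1.5-fold lower (12.2% of genes): the protease gene St14 (-2.08), Spint1 (-1.82), Nrp1 (-1.41) and Plat (-1.23). Hgfac, the HGF activator, stood at -0.33 and Hpn, which encodes hepsin, at 0.13. In E14 cells 1 gene was at least 1.5-fold higher, Dcn (0.86), a proteoglycan that binds MET and is also in the stellate and fibroblast list, and the list median was -0.01. Gab1, the docking protein of MET, read 569 in P1 wild type and 445 in P1 knockout. Its ratio was -0.93 in P1 liver (-1.03 with the local background used) and 0.19 in E14 cells. Of 23 adaptor and kinase genes detectable in P1 liver, it was the only 1 at least 1.5-fold lower (4.12% of all genes), and 0 were higher (2.85%). The authors' deposited table had 2 higher (11.9% of genes) and 2 lower (12.2%). The list median was -0.08, and 0 of 26 passed 1.5-fold in E14 cells.

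PDGF ligand genes were dim. Pdgfa read 90.9 in P1 wild type and 107 in P1 knockout with a ratio of -0.41, and Pdgfb stood at -0.04 and Pdgfc at -0.13. All 10 detectable genes of the PDGF list had P1 ratios below 0 (median -0.32), as did 50.4% of all genes. Among them 1 was at least 1.5-fold lower (4.12% of all genes), the matrix protein gene Sparc (-1.21), whose product binds PDGF. By the authors' deposited table, 5 were lower (12.2% of genes): St14 (-2.08), Nrp1 (-1.41), Pdgfa (-1.23), Plat (-1.23) and Sparc (-1.21). In E14 cells 0 of 10 passed 1.5-fold, with a median of 0.03, Nrp1 at 0.36 and Sparc at 0.35.

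Of 16 feedback and response genes of receptor signalling detectable in P1 liver, 14 had a ratio below 0 and 5 were at least 1.5-fold lower, namely Ier3 (-1.35), Fos (-1.30), Egr1 (-1.12), Dusp7 (-0.68) and Phlda1 (-0.64), and 1 was higher, Myc (0.70). Of all genes, 50.4% had a P1 ratio below 0, 4.12% were at least 1.5-fold lower and 2.85% higher. The authors' deposited table had 9 lower (12.2% of genes) and 1 higher (11.9%). With the local background used, Phlda1 (-0.29) and Myc (0.45) were no longer past 1.5-fold. Ier3 (-1.47), Egr1 (-0.81), Fos (-0.75) and Dusp7 (-0.68) still were. The list median was -0.20. Spry1, Dusp6, Etv4 and Etv5, more particular to FGF signalling, stood at -0.45, -0.24, -0.01 and -0.09. In the authors' deposited table they stood at -0.92, -0.15, -0.15 and -0.23, so Spry1 was past 1.5-fold there. Spry4 was too (-0.85, against -0.12 after normexp and loess), with a P1 knockout signal of 89.7 against a threshold of 87.0. In E14 cells 0 of 17 passed 1.5-fold, with a median of 0.01 and Dusp6 at 0.30. Ier3, Fos and Egr1 are also immediate early genes that respond to tissue handling.

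Among 43 other receptor tyrosine kinase genes on the array, Egfr was at least 1.5-fold higher on both arrays (0.59 and 1.07), out of 36 detectable in E14 cells and 33 in P1 liver. Tek (-0.79) and Kdr (-0.67), both endothelial receptors, were at least 1.5-fold lower in P1 liver. With the local background used, Egfr stood at 0.31 in E14 cells and 0.95 in P1 liver, Tek at -0.59 and Kdr at -0.47. The E14 value of Egfr and the P1 value of Kdr were then below 1.5-fold. The shares of all genes higher and lower were 0.307% and 0.220% in E14 cells, and 2.85% and 4.12% in P1 liver. The authors' deposited table had 3 higher (5.38% of genes) and 0 lower (1.22%) in E14 cells. In P1 liver it had 4 higher (11.9%) and 11 lower (12.2%). The medians of this list were 0.02 and -0.12, beside 0.17 and -0.42 for the growth factor genes, and the P1 direction of Met was that of Egfr. Nearest to Fgf1, the only member at least 1.5-fold changed, by Euclidean distance over its 2 ratios among 12005 genes were Nkd1 (distance 0.01), Rtkn2 (0.03) and Cyp2e1 (0.03), and among the pathway lists Tek (0.07), Gab1 (0.11) and Dusp7 (0.23). These distances rest on a P1 ratio of Fgf1 that was -0.02 with the local background used. Tek (-0.59), Gab1 (-1.03) and Dusp7 (-0.68) were then far from it.

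**Figure D5:**
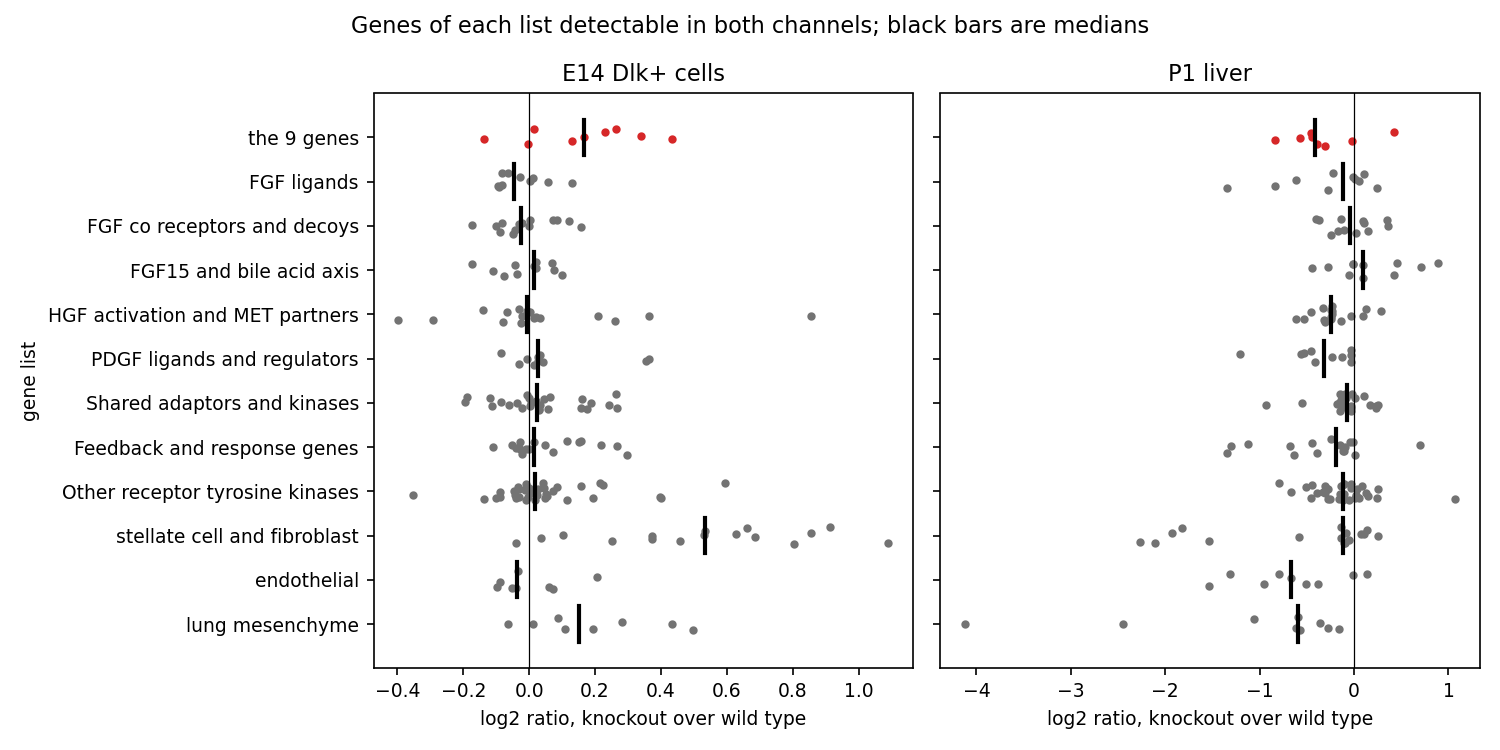
Log2 ratios of knockout over wild type of the genes of each list detectable in both channels, E14 array on the left and P1 array on the right with different x scales, 1 point per gene and a black bar at the median. The 9 genes (red) have medians of 0.17 and -0.42, and the stellate cell and fibroblast markers 0.53 and -0.12.

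Markers of other cells moved beside these genes, and the shares of all genes given with the partner lists apply to their counts as well. In E14 cells, 15 of 16 stellate cell and fibroblast markers had a ratio above 0 and 7 were at least 1.5-fold higher (median 0.53), with summed signals of 8558 in wild type and 29363 in knockout and none below threshold, in the same direction as Pdgfra, Pdgfrb and Hgf. For endothelial markers, of which 8 of 11 were detectable in both channels, the median was -0.04. Of 11 hepatoblast and hepatocyte markers, 6 were at least 1.5-fold lower, and they were the 6 brightest, with near-equal signals in both channels for some (Alb 37881 and 37592, ratio -1.31). Dimmer ones lay near 0 (Dlk1 -0.03, Hnf4a -0.12), so the list median of -0.69 gives no direction for these cells. In P1 liver, all 9 lung epithelial markers with a ratio were at least 1.5-fold lower (median -4.43), with summed signals over 15 genes of 41473 in wild type and 1959 in knockout; Sftpb, Scgb3a2, Cldn18, Lamp3, Nkx2-1 and Foxj1 were below threshold in the knockout. Of 9 detectable lung mesenchyme markers, a list that holds Pdgfra and Fgf18, all 9 had a ratio below 0 and 5 were at least 1.5-fold lower (median -0.59). The lowest were Mfap4 (-4.12, with signals of 916 and 93.3), Inmt (-2.45, with 440 and 127) and Foxf1 (-1.06). Summed signals of the list were 2272 and 1210. Fgf10 was not detectable in either channel, with a wild-type signal of 50.3 against a threshold of 50.5. Endothelial markers (median -0.67, 5 of 9 at least 1.5-fold lower, sums of 5049 and 4767, with Cdh5 and Emcn below threshold in the knockout) and stellate and fibroblast markers (median -0.12, 5 of 16, sums of 5925 and 4891) also had medians below 0. In the latter list 12 lay below 0, the lowest being Tcf21 (-2.27), Acta2 (-2.11), Col3a1 (-1.93) and Col1a2 (-1.82). The 4 above 0 were Lhx2 (0.26), Colec10 (0.13), Lum (0.11) and Ngfr (0.07). Of the endothelial markers Egfl7 (-1.54) and Cd34 (-1.32) were lowest, 8 lay below 0, and Stab1 (0.14) lay above 0. Hepatocyte markers went both ways in P1 liver, with 3 at least 1.5-fold higher (Tdo2 1.86, Tat 1.73 and Cps1 1.06) and 5 lower, which were among the brightest (Ahsg -1.56, with the wild-type spot at the top of the scale, 65535). Bile duct, macrophage, mesothelial and erythroid markers had medians of 0.02, -0.12, -0.25 and -0.75 in P1 liver. The part of these cell types in the ratios of the growth factor genes was not tested.

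Scaling bears on the E14 values more than on the P1 values. With median centring in place of loess, the median of all genes on the E14 array moved from 0.01 to 0.29, and genes at least 1.5-fold higher and lower went from 39 and 28 to 3158 and 5. The P1 counts went from 362 and 524 to 1298 and 320. Relative to the shifted E14 median, Pdgfra (0.75), Pdgfrb (0.55) and Fgfr2 (0.46) stayed above it and Met (-0.29) below it, while Fgfr4 was at 0.27, Hgf at 0.11, Fgfr1 at 0.02, Fgf1 at -0.17 and Fgfr3 at -0.53.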

How the data were processed

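Expression in MMP-14 KO and wild-type mouse liver was measured on 2 arrays, 1 per comparison. The members and gene lists were chosen with earlier results of these data known. Per the file headers, the deposited scanner files hold median spot and local background intensity in both channels, not normalised. Per the labels, the table deposited by the authors gives normalised log2 ratios, knockout to wild type. Its values followed blank-subtracted channel ratios centred on the array median (Pearson correlation 1.00 on both arrays; column medians 7.21e-07 and -2.74e-05), so scale, centring and direction are known. The labels do not state how they were computed.

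With limma 3.58.1 (R 4.3.3), intensities were corrected with normexp (offset 50, no local background), ratios were normalised by loess (span 0.3) with control spots at weight 0, and probes of a gene were averaged. Detection was the blank mean plus 2 SD after 5% of blank spots was removed at each end. The 4 probes flagged in the E14 file were left out. Of 23473 probes 16631 had 1 gene symbol, 0 several and 6842 none in the platform annotation, and 3947 symbols were updated with RefSeq (GRCm38.p6). The procedure was checked on simulated arrays. Precision is limited by the number of arrays. Genes were named if at least 1.5-fold changed within a list, up to 4 per list and array, and all 9 members were described. Members were also given below that size, and so were Klb, Fgf15, Hgfac, Hpn, Pdgfa, Pdgfb, Pdgfc, Nrp1, Spry1, Spry4, Dusp6, Etv4, Etv5, Dusp7, Phlda1, St14, Plat, Flrt1, Flrt2, Flrt3, Fgfbp3, Tfrc, Hnf4a, Cps1, Afp, Dlk1, Ptprc, Lhx2, Colec10, Lum, Ngfr and Stab1, chosen after their values were seen. Promoter windows and motifs were chosen after the ratios were seen. The 12 alternatives cover background, scaling, offset, filter, probe summary and the authors' values. Those of filter and probe summary leave the ratio of a gene with 1 probe unchanged, and each member has 1 probe.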

Additional observations from a re-analysis of the deposited data

Results flagged for a closer look

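The ratios of 4 genes had opposite signs on the arrays and differed by at least 1.5-fold, P1 minus E14: Pdgfra by -1.01 (0.43 in E14 cells and -0.58 in P1 liver), Fgf1 by -0.97 (0.13 and -0.84), Pdgfrb by -0.73 (0.34 and -0.39) and Fgfr2 by -0.72 (0.26 and -0.46). In the authors' deposited values the differences were -1.19, -1.86, -1.02 and -1.09. With the local background used, the E14 and P1 ratios were 0.52 and -0.74 for Pdgfra and 0.06 and -0.02 for Fgf1. They were 0.35 and -0.06 for Pdgfrb and 0.11 and -0.45 for Fgfr2. Only those of Pdgfra then differed by at least 1.5-fold. With the local background subtracted instead, the ratios of all 4 genes did. They were 0.61 and -1.11 for Pdgfra, 0.62 and -0.08 for Fgf1, 0.55 and -0.18 for Pdgfrb and 0.10 and -0.88 for Fgfr2. With 1 array each the difference was not tested, and the arrays carried sorted cells and whole liver.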

How the results depend on the processing

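No paired analysis was possible because each comparison had 1 array, and for the same reason no replicate could be left out. Of the 9 genes, the number at least 1.5-fold changed on the E14 array was 0, but 3 with median centring and 5 with the local background subtracted. On the P1 array it was 1, but 4 with the local background subtracted, 6 with the blank mean subtracted, 6 with offset 0, 5 with offset 16, 7 in the authors' values and 0 at 2-fold. The E14 median of 0.17 was 0.40 with median centring, 0.55 with the local background subtracted, 0.36 with the blank mean subtracted, 0.32 with offset 0 and 0.40 in the authors' values. The P1 median of -0.42 was -0.061 with the local background in normexp, -0.71 with the blank mean subtracted, -0.68 with offset 0 and -0.74 in the authors' values. These counts go with the shares of all genes past 1.5-fold, higher and lower: on the E14 array 24.9% and 0.0394% with median centring and 14.2% and 7.71% with the local background subtracted. On the P1 array they were 18.4% and 14.8% with the local background subtracted, 9.88% and 12.3% with the blank mean subtracted, 6.83% and 9.34% with offset 0, and 4.23% and 6.39% with offset 16. The P1 ratio of Fgf1 kept its sign in all 12 alternatives, of which those of filter and probe summary could not change it. The ratio of Fgfr3 on the E14 array went from -0.24 to 0.74. Medians of the level differences between arrays, -0.23 for wild type and -0.76 for knockout, were -0.12 and -0.89 when each channel was scaled to its median. Signal over local background was lowest for Fgfr3 and Fgf1 on the E14 array (1.02 and 1.09 for wild type) and for Fgf1 and Fgfr4 on the P1 array (1.11 and 1.12) among detectable genes.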
